A study of Mus musculus with 4 samples.

Results

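Zmat4-positive type 2-like tumour cells were 2770 of the 29367 cell barcodes of this mouse lung tumour series, and 2770 of its 15189 epithelial cells. The label type 2 refers to alveolar type 2 cells, the surfactant-secreting cells of the lung alveolus. Cells were taken from barcodes with at least 2000 unique molecular identifiers (UMIs, counted RNA molecules) and at most 20% mitochondrial UMIs, and counted as epithelial with at least 2 UMIs of Epcam, Cdh1, Krt8, Krt18 and Cldn18 together and none of Ptprc, Cdh5 or Col1a2. Members were chosen by measured UMIs: an epithelial cell was a member when it held at least 2 UMIs of Zmat4 and stayed under 5 limits that set other epithelial states apart. Per 10000 UMIs these were under 5 for Lyz1 with Retnla, under 10 for Rbp4 with Agr2 and Phgr1, under 20 for Dlk1 with Bpifa1, under 5 for Cldn4 with Krt7, and under 4 for Rtkn2 with Col4a3 and Col4a4. Epithelial cells that passed all 5 limits and held no Zmat4 UMI served as the nearest comparison, called Zmat4-negative cells (2739 cells). A second one was the 1134 Lyz1-high cells, epithelial cells at or over the first limit.

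The tumours grew in KPH mice, whose alleles in all 4 libraries include p53frt, Rosa-FSF-CreERT2 and Hnf4aflox. The mice were intubated with adenovirus that makes FlpO recombinase from the mSPC promoter, the promoter of the type 2 cell gene for surfactant protein C. FlpO switches on CreERT2 and removes p53, in tumours of both groups. After 10 weeks the mice received tamoxifen, the drug that activates CreERT2 to delete Hnf4a, or vehicle, given as ethanol in one label field and corn oil in another. Macroscopic tumours were dissociated 2 weeks later. From each treatment, 1 library was made from cells before and 1 from cells after magnetic removal of CD45-positive and CD31-positive cells, which gave 4 libraries with 1 library per group. The numbers of animals and tumours behind each suspension were not given in the sources used here, so no test between treatments was possible, and differences are given as sizes with counting intervals only. The 2 pairs of libraries are portions of the same suspensions and do not replicate the treatment.

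Type 2 cells make surfactant proteins and lipids, keep their identity through the transcription factor NKX2-1, and act as progenitors of the alveolus. HNF4A is a nuclear receptor that drives liver, stomach and gut gene programmes and is turned on in part of the lung adenocarcinomas. ZMAT4 is a zinc finger protein of the matrin type with no settled role in the lung.

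The 4 libraries held 6558 to 7867 barcodes and 92644997 to 144994771 UMIs each. Members numbered 157 in the vehicle library before depletion, 1005 in the vehicle library after depletion, 199 in the tamoxifen library before depletion and 1409 in the tamoxifen library after depletion. Libraries shared 10 to 18 barcodes pairwise, and no member barcode was shared. Members were deeper than Zmat4-negative cells. Their median UMI counts were 29860, 19387, 27787 and 16939 in that order of libraries, against 13512.5, 12931, 17236 and 13482 in Zmat4-negative cells. All other epithelial cells pooled had medians of 20963, 18356, 25417 and 17019, above members in the last library. Cells over the Dlk1 and Bpifa1 limit, at 39124, 24946, 43148 and 23272, were deeper than members in every library. A deeper cell reaches 2 UMIs of Zmat4 more easily, so depth enters the membership itself.

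Members made up 18.00% of epithelial cells in the vehicle library before depletion (exact 95% interval 15.5 to 20.7) and 21.6% in the tamoxifen library before depletion (19.0 to 24.4). After depletion the shares were 15.8% with vehicle (14.9 to 16.7) and 20.02% with tamoxifen (19.1 to 20.97). The share was higher with tamoxifen in both pairs, with intervals that overlapped before depletion and not after it. These intervals cover counting error and not differences between mice. With every epithelial cell thinned to 2000 UMIs, the shares were 3.326% and 4.77% before depletion and to 4.26% and 6.01% after it, vehicle first.

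**Figure D1:**
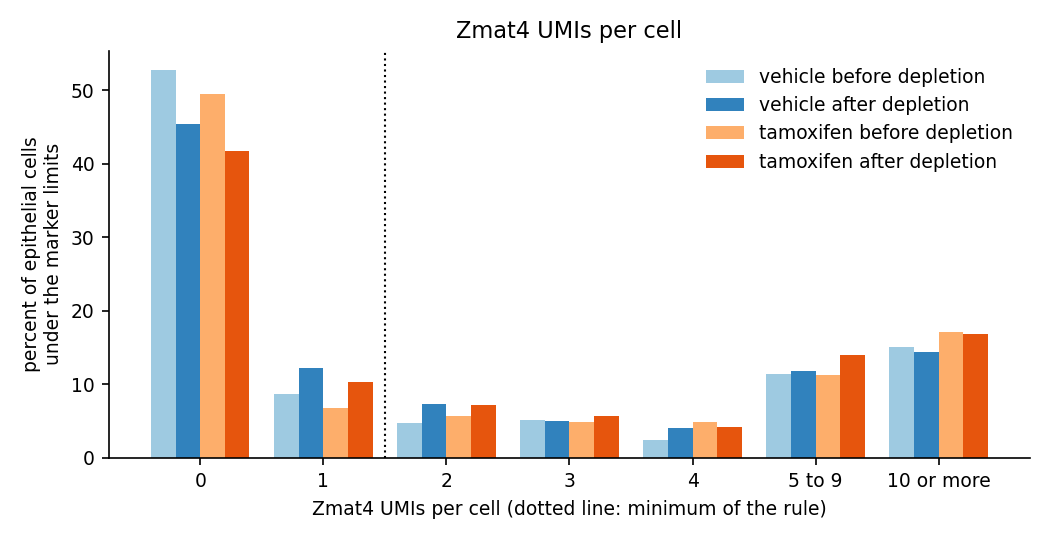
Zmat4 UMIs per cell in epithelial cells under the 5 limits, as a percent of those cells (y axis) by UMI number (x axis), with 1 bar per library. Cells with no Zmat4 UMI are the most frequent class, and 14.3% to 17.1% of the cells hold 10 or more.

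Zmat4 lies on the plus strand of chromosome 8 (23636019 to 24156585, GRCm38, GENCODE M21). Its level in members, which the rule sets, was 403, 475, 407 and 515 CPM (the gene's UMIs per 1000000 UMIs of the population), in the same order of libraries. The median member held 6 or 7 Zmat4 UMIs in each library, and the highest Zmat4 count in any member was 147. Members with 10 or more made up 38.9%, 33.7%, 39.2% and 35.2%. At the edge of the rule, 19, 174, 26 and 211 members held exactly 2 Zmat4 UMIs, and 35, 288, 31 and 304 cells under the limits held exactly 1 and were left out. The limits on other states had cells on both sides to different degrees. After depletion, 77 vehicle and 72 tamoxifen members lay between 3.2 and 4 UMIs per 10000 of Rtkn2, Col4a3 and Col4a4, and 62 and 69 otherwise like cells lay between 4 and 4.8. Between 4 and 5 UMIs per 10000 of Lyz1 and Retnla lay 0, 2, 0 and 7 members, and between 5 and 6 lay 0, 4, 0 and 2 such cells.

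Zmat4 was not private to the members among epithelial cells. Cells over the Dlk1 and Bpifa1 limit held it at 460, 336, 156 and 201 CPM. Cells over the Rtkn2, Col4a3 and Col4a4 limit held it at 261 to 370 CPM, and Lyz1-high cells at 66.6 to 110 CPM. Outside the epithelium it was rare: before depletion 7 of 2483 Ptprc-positive cells (0.282%) held 2 Zmat4 UMIs in the vehicle library, and none of 1518 did in the tamoxifen library. None of the 46 to 96 Cdh5-positive endothelial cells per library did, which allows a share of up to 3.13% to 6.52%. Of Col1a2-positive cells, 0 of 59 and 1 of 44 with vehicle and 1 of 50 and 1 of 43 with tamoxifen held at least 2 Zmat4 UMIs, before depletion first.

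The label was checked against its 5 markers. Cxcl15, a lung chemokine made by type 2 cells, stood at 2767, 2754, 2015 and 2235 CPM in members and at 3376, 3994, 3873 and 3597 CPM in Zmat4-negative cells. Slc34a2, the phosphate transporter of type 2 cells, stood at 1923, 1280, 2011 and 1573 CPM against 2590, 1874, 2313 and 2006 CPM. Both were thus present at high levels in members and lower than in Zmat4-negative cells in all 4 libraries. Egfl6, a secreted protein with EGF repeats, ran the other way at 351, 365, 469 and 407 CPM against 329, 300, 287 and 291 CPM. Car8, a carbonic anhydrase relative without enzyme activity, was at 653, 450, 495 and 491 CPM against 472, 446, 371 and 400 CPM. Against cells over the Cldn4 and Krt7 limit, where Cxcl15 was at 958 to 1224 CPM and Slc34a2 at 310 to 535 CPM, members were higher in every library. Lyz1-high cells held more Cxcl15 than members, at 5681 to 6361 CPM, and cells over the Dlk1 and Bpifa1 limit held 2748, 3096, 2364 and 2641 CPM, above members in 3 of 4 libraries. Egfl6 was at 310 to 408 CPM and Car8 at 468 to 664 CPM in Lyz1-high cells. Type 2 markers were detected in the members of every library. Apart from Zmat4, none of the 5 differed 2-fold from Zmat4-negative cells.

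Sftpc, the surfactant protein C gene, was at 65502, 79319, 80908 and 82546 CPM in members. It was at 101892 to 119457 CPM in Zmat4-negative cells, 141345 to 151020 CPM in Lyz1-high cells and 20829 to 31980 CPM in cells over the Cldn4 and Krt7 limit. These 4 ranges did not overlap, but cells over the Dlk1 and Bpifa1 limit, at 52368.5 to 74636.6 CPM, overlapped the members. Cells over the Rtkn2, Col4a3 and Col4a4 limit reached 59855.7 CPM and cells over the Rbp4, Agr2 and Phgr1 limit 56359.6 CPM, below the members. Sftpb, by contrast, hardly differed, at 5429 to 6091 CPM in members and 5949 to 6655 CPM in Zmat4-negative cells. Of the 15 genes of the type 2 list, 14 were lower in members than in Zmat4-negative cells in all 4 libraries, and 1 (Lyz2) was at least 2-fold lower in each. The list's median log2 ratios were -0.47, -0.59, -0.71 and -0.46, beside 0.21, 0.13, 0.20 and 0.09 over all genes considered. Against all other epithelial cells pooled, the list's medians were positive in all 4 libraries, from 0.11 to 0.30.

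Among the cells under the limits, Sftpc and Lyz2 were lower in cells with 10 or more Zmat4 UMIs than in cells without Zmat4, in all 4 libraries. In the vehicle library after depletion Sftpc went from 119457 CPM in cells without Zmat4 to 104303 CPM in cells with 2 UMIs and 60384 CPM in cells with 10 or more. Lyz2 went from 13371 to 7890 and then to 909 CPM in the same cells. Rcan2 went the other way, from 12.9 to 22.0 and 63.3 CPM, and the tamoxifen library after depletion gave the same order for these 3 genes. In that library Sftpc was at 101892, 98172 and 75255 CPM. In the tamoxifen library before depletion Sftpc did not follow the order, at 103602 CPM without Zmat4, 73488 CPM at 2 UMIs, 122103 CPM at 3 and 75740 CPM at 10 or more. These cells differ in depth as well, with medians of 12931, 16361.5 and 22567 UMIs in the vehicle library; the part of depth was not tested.

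**Figure D2:**
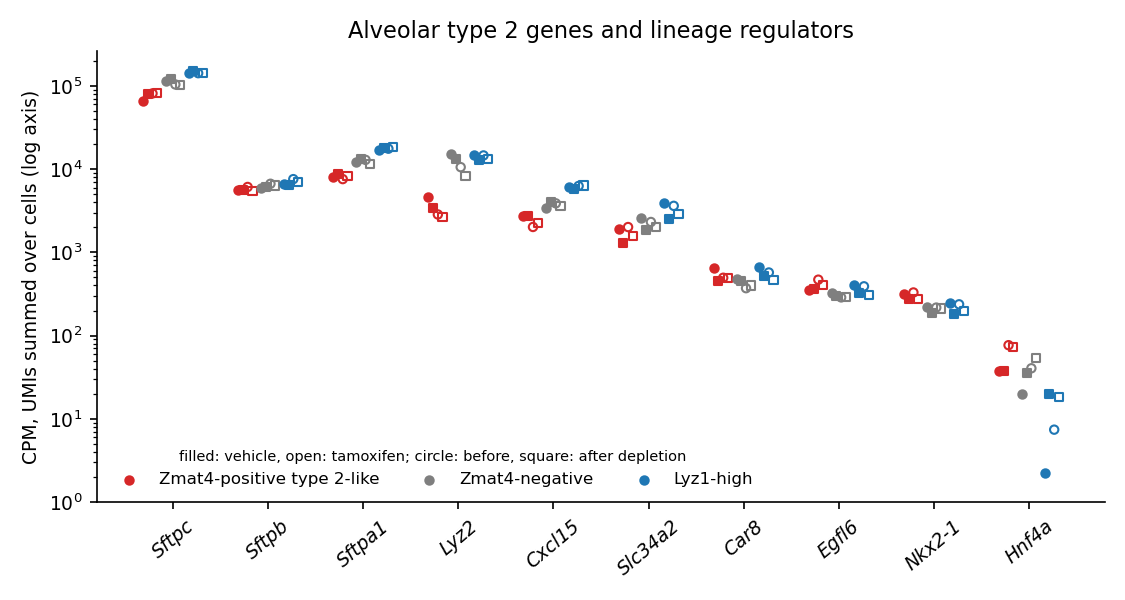
Level of alveolar type 2 genes, the label markers Car8 and Egfl6, and the regulators Nkx2-1 and Hnf4a in members, Zmat4-negative and Lyz1-high cells. The y axis is CPM of UMIs summed over cells (log axis), with 1 point per library. Lyz2 shows the widest gap, 2659 to 4573 CPM in members against 8299 to 14958 CPM in Zmat4-negative cells.

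Members were next compared with Zmat4-negative cells over all genes, library by library. A gene counted as apart when all 4 libraries showed a difference of 2-fold or more in 1 direction, on log2 of CPM plus 1, with at least 10 CPM on one side in each. Of 8557 genes considered, 18 were higher in members (0.21%), Zmat4 itself included, and 24 were lower (0.28%). The rule that chose the members read these same cells, so these counts describe the split and test nothing.

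Stra8, a gene that retinoic acid induces in germ cells before meiosis, led the higher genes. It was at 51.2, 67.4, 64.7 and 56.5 CPM in members and at 9.93, 12.6, 9.05 and 11.4 CPM in Zmat4-negative cells. The groups did not overlap, and the log2 ratios were 2.26, 2.33, 2.71 and 2.21, with counting intervals of 1.85 to 2.92, 2.21 to 2.64, 2.37 to 3.35 and 2.10 to 2.52 for the ratio without the added 1 CPM. After thinning to 2000 UMIs, 7.64% to 12.3% of members and 1.30% to 1.87% of Zmat4-negative cells held a Stra8 UMI, and no Cdh5-positive cell did. Stra8 was not private to the members either, since vehicle cells over the Dlk1 and Bpifa1 limit held it at 252 and 230 CPM.

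Rcan2, a regulator of the phosphatase calcineurin, was at 40.3, 46.1, 67.1 and 85.5 CPM in members against 10.8, 12.9, 18.8 and 19.8 CPM. Prkd1, the kinase protein kinase D1, was at 111, 99.1, 90.3 and 84.3 CPM against 38.6, 33.1, 27.1 and 31.8 CPM. Ros1, a receptor tyrosine kinase, was at 181, 185, 217 and 222 CPM against 53.1, 77.9, 80.7 and 97.9 CPM. For each of the 3 genes the lowest member value lay above the highest Zmat4-negative value. Sh3rf3, a scaffold of stress kinase signalling, was apart by log2 1.22 to 1.90.

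Adamts6, a secreted metalloprotease, was at 220, 191, 210 and 211 CPM in members against 35.8, 77.3, 48.2 and 81.9 CPM. Fbn2, the fibril protein fibrillin 2, was at 18.5, 15.2, 21.5 and 41.1 CPM against 3.41, 3.51, 8.14 and 10.6 CPM. Pdlim3, an actin-associated PDZ and LIM protein, was apart by log2 1.41 to 1.85. Adarb2, an RNA-binding relative of the RNA editing enzymes, and Fam178b completed the 10 named after the exclusions given under processing. Dcn, the proteoglycan decorin, was also apart (33.3, 40.8, 113 and 102 CPM against 3.97, 18.1, 23.3 and 31.9 CPM); it is a defining gene of fibroblasts, and Col1a1 was at 0.808 to 1.72 CPM in the same members.

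Among the lower genes, Lyz2, the lysozyme shared by type 2 cells and macrophages, was at 4573, 3405, 2847 and 2659 CPM in members against 14958, 13371, 10537 and 8299 CPM. Scd1, the stearoyl-CoA desaturase, was at 628, 345, 527 and 361 CPM against 1858, 1230, 1321 and 1060 CPM. Gpam, the acyltransferase that opens glycerolipid synthesis, differed by log2 -1.20 to -1.46. Of the 14 genes of the type 2 lipid list, 8 were lower in all 4 libraries, 2 were higher in all 4 and Scd1 alone passed 2-fold, with list medians of -0.28, -0.39, -0.23 and -0.27.

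Cbr2, the lung carbonyl reductase, was at 199, 208, 108 and 122 CPM in members against 875, 682, 494 and 430 CPM. Scgb1a1, the club cell secretoglobin, was at 2.66, 22.7, 13.3 and 16.6 CPM against 65.3, 63.5, 147 and 90.2 CPM. Cyp2b10, a xenobiotic cytochrome P450, and Cftr, the epithelial chloride channel, were apart by log2 -1.89 to -3.19 and -1.40 to -1.98. Irx2, Cox6a2 and Cst8 were the other 3 of the 10 named. Macrophage markers moved with this comparison before depletion: the 10 of the list summed to 1112 and 766 CPM in Zmat4-negative cells and to 72.7 and 66.8 CPM in members, against 22.1 and 14.4 CPM and 12.3 and 13.5 CPM after depletion. With marked macrophage and ciliated cells left out of the reference, 69 of 214 and 100 of 225 before depletion, Sh3rf3 was the 1 gene of the 20 that no longer passed, with a smallest log2 ratio of 0.92. Weighting Zmat4-negative cells to the members' UMIs per cell left 12 lower genes, 10 of them among the 24, and Scd1, Gpam, Cst8, Irx2, Cox6a2, Scgb1a1 and Adarb2 then missed 2-fold in at least 1 library.

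**Figure D3:**
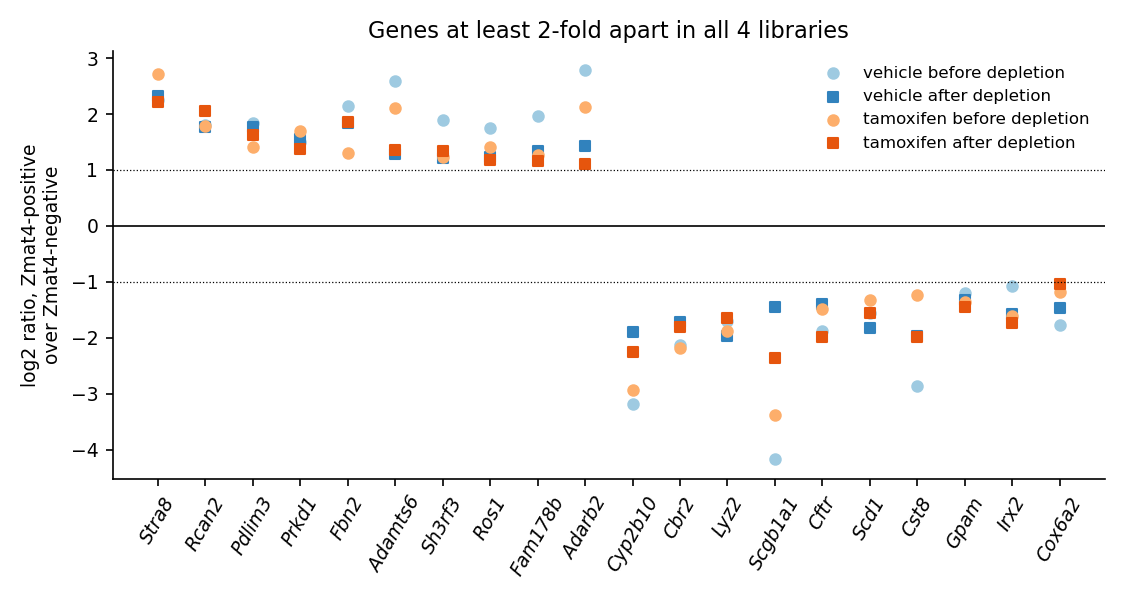
Log2 ratio of CPM plus 1, members over Zmat4-negative cells (y axis), for the 10 higher and 10 lower genes named, with 1 point per library. Dotted lines mark 2-fold. The genes have the widest gaps left after the exclusions given under processing. Those exclusions took out wider ones, among them Spp1 (-2.73 to -4.35) and Ly6a (-1.95 to -3.12). Stra8 lies between 2.21 and 2.71, and Lyz2 between -1.64 and -1.97.

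Against Lyz1-high cells the gap was wider. Of 8560 genes considered, 256 were higher in members (2.99%) and 71 lower (0.829%), and 16 of the 18 and 18 of the 24 genes above were among them. Of the type 2 list, 8 of 15 genes were at least 2-fold lower in all 4 libraries, with medians of -1.10, -1.03, -1.21 and -1.17. Scgb1a1 in the Lyz1-high cells after depletion was at 4182 and 10536 CPM, so that reference held airway transcripts at a level not seen in members.

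Nkx2-1 was at 313, 271, 329 and 277 CPM, above the 218, 189, 217 and 212 CPM of Zmat4-negative cells in each library. Sox9, a progenitor factor, was at 69.1, 58.6, 47.6 and 62.4 CPM against 23.6, 33.8, 33.0 and 50.4 CPM. Foxa2 and Cebpa differed little, while Sox2, a factor of airway cells, had no UMI in any member. Of the 14 regulators, 8 were higher in members in all 4 libraries and none passed 2-fold in all 4, with list medians of 0.48, 0.13, 0.28 and 0.17 beside the 0.21, 0.13, 0.20 and 0.09 of all genes. After thinning, 40.1% to 45.2% of members held an Nkx2-1 UMI and 29.8% to 33.7% of Zmat4-negative cells did.

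Hnf4a, the gene targeted by tamoxifen, was at 37.7 and 37.9 CPM in members of vehicle tumours and at 76.7 and 73.3 CPM in members of tamoxifen tumours. Its 3′ transcript level was higher with tamoxifen, by log2 1.01 before depletion (counting interval 0.78 to 1.27) and 0.93 after it (0.83 to 1.07), which in the second pair is under 2-fold, so the gene was not counted below. Zmat4-negative cells showed 20.1, 35.2, 40.5 and 53.7 CPM. The libraries read the 3′ end, and which exons the loxP sites flank was not given in the sources used here, so these counts cannot show whether the allele was recombined. After thinning, 3.82% and 6.67% of vehicle members and 10.6% and 11.1% of tamoxifen members held an Hnf4a UMI. Cells with UMIs of both Hnf4a and Nkx2-1 made up 1.91% and 2.39% of vehicle members and 7.04% and 3.76% of tamoxifen members. In Cdh5-positive cells an Hnf4a UMI was seen in none of 3 libraries and in 3.70% in the tamoxifen library after depletion.

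**Figure D4:**
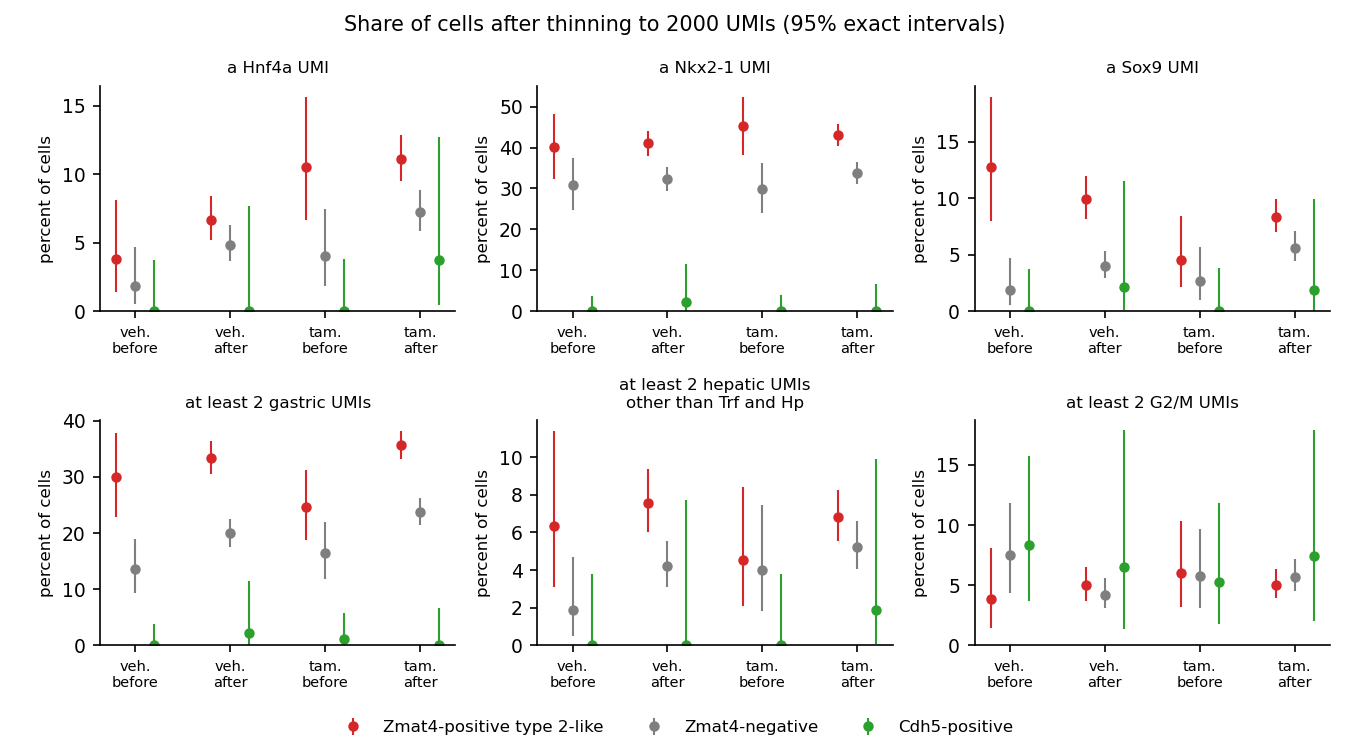
Share of cells (y axis, percent) with the named UMIs after thinning each cell to 2000 UMIs, by library (x axis), in members, Zmat4-negative and Cdh5-positive cells; bars are exact 95% intervals. The share of members with an Hnf4a UMI runs from 3.82% to 11.1%, and with 2 G2/M UMIs from 3.82% to 6.03%.

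The treatment comparison asked how members of tamoxifen tumours differed from members of vehicle tumours, counting a gene when each pair showed 2-fold or more in 1 direction and 10 CPM on one side. Of 8988 genes considered, 24 were higher with tamoxifen (0.267%) and 72 were lower (0.801%). Bpifa1 and Phgr1, genes of the selection limits, are among the 24. Zmat4 itself was at log2 0.01 and 0.12. In Zmat4-negative cells the same rule gave 14 higher and 24 lower genes of 8548 considered. Of these, 4 higher and 13 lower genes were shared with members.

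Smim6, which encodes a small membrane protein, fell the most. It was at 71.2 and 70.9 CPM in vehicle members and at 2.69 and 3.63 CPM in tamoxifen members, or log2 -4.29 and -3.96, and the groups were far apart. Zmat4-negative cells of the same libraries went from 86.3 and 94.2 CPM to 5.88 and 4.31 CPM. Adamts18, a secreted metalloprotease, rose from 10.1 and 9.77 CPM to 36.3 and 47.7 CPM, and in Zmat4-negative cells from 2.27 and 2.03 CPM to 7.92 and 11.7 CPM. The 250 bases before the RefSeq starts (GRCm38.p6) of these genes are shown. In each direction, the gene is the first named with a single RefSeq start and no annotated exon in that window. Smim6 is at chr11:115911767-115912016 on the plus strand and Adamts18 at chr8:113848840-113849089 on the minus strand. Both are written 5′ to 3′, with no capitals because neither motif searched was found.
Smim6: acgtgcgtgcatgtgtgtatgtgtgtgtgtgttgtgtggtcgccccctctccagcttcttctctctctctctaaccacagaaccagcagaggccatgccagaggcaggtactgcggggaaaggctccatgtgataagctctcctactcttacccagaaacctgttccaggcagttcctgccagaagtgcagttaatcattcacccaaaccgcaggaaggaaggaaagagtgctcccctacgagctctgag
Adamts18: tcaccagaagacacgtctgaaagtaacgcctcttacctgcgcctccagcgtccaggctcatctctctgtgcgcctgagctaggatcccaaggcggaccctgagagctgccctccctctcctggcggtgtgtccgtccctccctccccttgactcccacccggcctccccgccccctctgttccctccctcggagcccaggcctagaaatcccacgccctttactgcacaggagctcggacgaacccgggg

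The motifs searched on both strands were CAAAGT (HNF4 half-site) and AGGTCA (nuclear receptor half-site). Neither window held either of them, which 12.6% and 14.0% of all 32851 RefSeq promoter windows of the same length hold. This describes the letters of these windows only.

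Plppr1, a membrane protein related to lipid phosphatases and known from neurons, was at 4.95 and 2.89 CPM in vehicle members and at 27.9 and 17.6 CPM in tamoxifen members. In Zmat4-negative cells it was at 0.452 to 1.14 CPM in all 4 libraries. Ptprn, a protein of dense-core granules, rose from 9.70 and 12.1 CPM to 52.1 and 37.3 CPM, and Cpe, the prohormone-processing carboxypeptidase E, from 3.81 and 6.14 CPM to 12.6 and 24.4 CPM. Ptprn was also higher in Zmat4-negative cells, by log2 0.57 and 1.12. Cpe in those cells went from 24.7 and 20.4 CPM to 6.56 and 30.3 CPM, lower before depletion and higher after it. Neuroendocrine lineage genes were scarce in members: the 11 of that list summed to 4.81 to 8.84 CPM in members, none reached 10 CPM and 2 had no UMI. Cpe fell below 2-fold when 3 Zmat4 UMIs, or 1 per 10000 UMIs, were required, with a smaller log2 ratio of 0.33 and 0.21.

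Fmo2, the flavin monooxygenase of lung, rose from 67.9 and 77.3 CPM to 218 and 222 CPM. Cyp1b1 rose from 7.23 and 8.75 CPM to 19.8 and 23.7 CPM, and Cyp2c40 from 8.18 and 11.6 CPM to 25.6 and 30.9 CPM; both are cytochrome P450 enzymes. Fmo1, another flavin monooxygenase, named after its values were seen, passed the rule the other way, from 22.8 and 15.2 CPM to 6.05 and 6.83 CPM. The 2 P450 genes were also higher with tamoxifen in Zmat4-negative cells in both pairs. Htra4, a secreted serine protease, rose by log2 1.51 and 1.46 in members. Ptprt, a receptor phosphatase, and Lce3f, a gene of the cornified envelope family, were the other 2 of the 10 named.

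Ttr, the thyroid hormone and retinol carrier transthyretin, went from 26.6 and 17.5 CPM to 3.03 and 3.78 CPM. Cfi, complement factor I, went from 69.1 and 85.9 CPM to 19.3 and 15.3 CPM. Of the 19 genes of the liver list, 10 were lower and 3 higher in both pairs, and Ttr alone passed 2-fold, with list medians of -0.09 and -0.31 beside -0.07 and -0.03 over all genes. Alb, the albumin gene, was at 59.2, 62.3, 24.9 and 34.7 CPM. Itih2, a plasma protein of the hyaluronan network, was higher with tamoxifen, at 44.9 and 56.0 CPM against 31.4 and 27.9 CPM. In Zmat4-negative cells Ttr and Cfi were also lower with tamoxifen, by log2 ratios of -2.87 and -2.89 and of -1.09 and -0.82.

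Kcnh7, a potassium channel subunit, went from 25.1 and 15.8 CPM to 3.36 and 1.73 CPM. Rims2, a scaffold of regulated exocytosis, went from 102 and 97.6 CPM to 23.0 and 26.0 CPM, Grip1 fell by log2 1.85 and 1.59, and Homer2 by 1.56 and 2.22. Kcnq5, a potassium channel subunit, and Sdk1, an adhesion protein of synapses, both named after their values were seen, were higher with tamoxifen, by log2 1.54 and 1.84 and by 1.68 and 1.40. Greb1, an oestrogen-responsive gene, went from 25.7 and 21.04 CPM to 4.71 and 5.62 CPM in members, while Zmat4-negative cells held 7.66, 7.44, 5.65 and 7.56 CPM. Ifi27l2b fell by log2 2.10 and 2.15. Muc5b, an airway mucin, fell from 10.7 and 13.1 CPM to 2.52 and 2.75 CPM. In Zmat4-negative cells the log2 ratios were -1.87 and -3.38 for Kcnh7, -1.12 and -1.09 for Rims2, and -1.85 and -2.30 for Ifi27l2b. They were -1.01 and -1.24 for Homer2, but 1.29 and -0.21 for Grip1 and 2.06 and 0.69 for Muc5b.

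**Figure D5:**
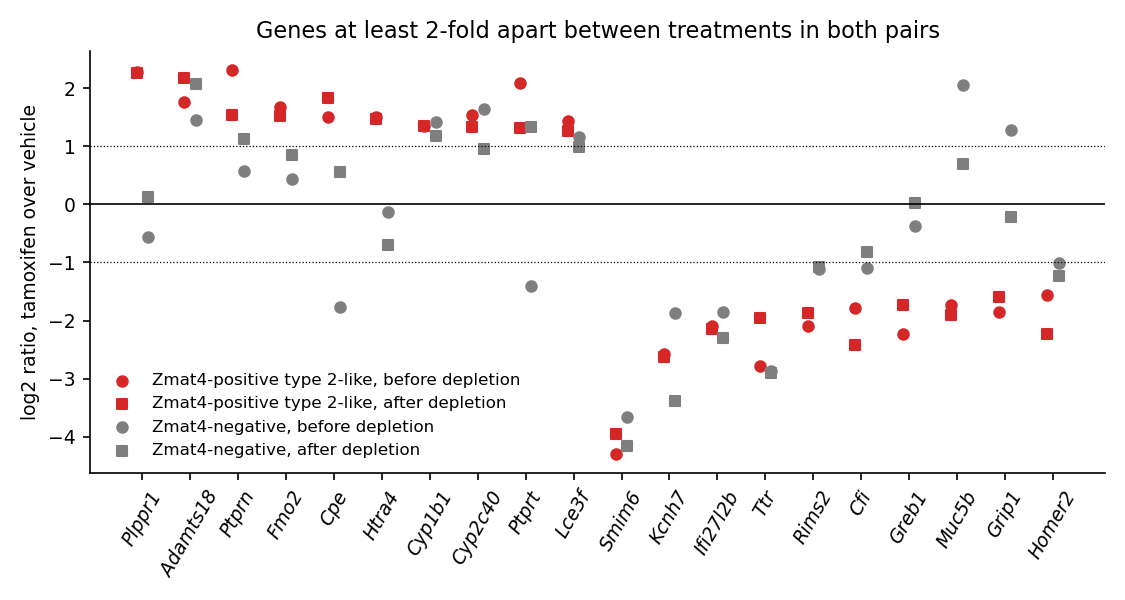
Log2 ratio of CPM plus 1, tamoxifen over vehicle (y axis), for the 10 higher and 10 lower genes in members (red) and in Zmat4-negative cells (grey), before (circles) and after depletion (squares); dotted lines mark 2-fold. Smim6 is lowest in both populations, and Plppr1, at 2.28 and 2.26 in members, is at -0.56 and 0.13 in Zmat4-negative cells.

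Other gene groups held few genes past 2-fold between treatments. The share of all genes that moved the same way in both pairs is not given beside these list counts. All 7 MHC class II genes, which present antigen to CD4 T cells, were lower with tamoxifen in both pairs, none at 2-fold. Their medians were -0.32 and -0.48, beside -0.07 and -0.03 over all genes considered. In Zmat4-negative cells the list's medians were 0.07 before and -0.22 after depletion. Cd74, the MHC class II chaperone, was at 2832, 3060, 2405 and 2353 CPM in members. Of the 15 type 2 genes, 9 were lower in both pairs, with medians of -0.15 and -0.16 and none at 2-fold. Of the 12 MAPK output genes, which report the activity of that kinase cascade, 6 were higher and 2 lower in both pairs, and 1 passed 2-fold, the lower Fosl1, named after its values were seen. For the alveolar type 1 list 7 of 12 genes were lower in both pairs, with medians of -0.12 and -0.15.

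Gastric genes were led by Gkn2, a gastrokine of the stomach lining, at 1428 and 1660 CPM in vehicle members and 942 and 1181 CPM in tamoxifen members. After thinning, 29.9% and 33.4% of vehicle members and 24.6% and 35.6% of tamoxifen members held 2 gastric UMIs, against 13.6% to 23.8% of Zmat4-negative cells and 0% to 2.17% of Cdh5-positive cells. The summed level of the 12 gastric genes was 1502, 1756, 1101 and 1253 CPM in members and 642, 1184, 894 and 1402 CPM in Zmat4-negative cells, thus lower in members in the last library. Gkn2 alone made up most of each sum in members, and the shares with 2 gastric UMIs include it. They do not show that several gastric genes were present in a cell. The list's median log2 ratios were -0.31, -0.01, 0.13 and -0.16. Cells over the Rbp4, Agr2 and Phgr1 limit held 3709 to 9515 CPM. Cym, the milk-clotting protease of the infant stomach, had no UMI in the vehicle library before depletion, and was at 8.52, 104 and 17.4 CPM in the other 3, so its level rests on the library. Intestinal genes were scarce: the 12 summed to 23.5 to 48.6 CPM. Of the transitional list, 7 of 14 genes were lower and 2 higher in both pairs, and of the 8 airway genes 4 were lower, with Muc5b alone past 2-fold.

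Cycling genes were read as the share of cells with 2 or more G2/M UMIs, which depends on depth. After thinning, 3.82% (1.42 to 8.13) and 4.98% (3.71 to 6.51) of vehicle members and 6.03% (3.15 to 10.3) and 5.04% (3.96 to 6.31) of tamoxifen members held such UMIs, and all 4 intervals overlapped. Unthinned, the shares were 36.3%, 26.5%, 27.6% and 23.0%. Of 17 G2/M genes, 14 were higher with tamoxifen in both pairs in members. Their median log2 ratios were 1.59 before and 0.26 after depletion, beside -0.07 and -0.03 over all genes. In Zmat4-negative cells the list's medians were -0.64 and 0.27. Summed, the 17 genes were at 120 and 284 CPM in vehicle members and at 403 and 345 CPM in tamoxifen members, before depletion first. Of 15 S phase genes, 7 were lower and 1 higher in both pairs in members. The interferon list had 5 of 10 genes higher in both pairs and 1 gene at 10 CPM, the stress list (immediate early and heat shock) 4 of 10 higher and 5 lower, and of the other ZMAT genes, 3 of 4 were higher by little, with a median of 0.20 and 0.11.

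Members before and after depletion, as portions of the same suspension, differed in few genes. Of 8842 genes considered, 4 were higher (0.0452%) and 10 lower (0.113%) after depletion in both treatments. These genes were named after their values were seen. Of the 10, Il1b, Chil3, Igkc, Srgn, Ccl6 and Igha are transcripts of leukocytes; Igkc went from 307 and 46.1 CPM to 0.0931 and 0.110 CPM. In all, macrophage genes summed to 66.8 and 72.7 CPM in members before depletion, T and NK genes to 3.01 to 7.57 CPM over the 4 libraries, neutrophil genes to 1.80 to 19.2 CPM and dendritic cell genes to 0.0465 to 2.52 CPM. B cell genes summed to 133 CPM in the vehicle library before depletion, where Ighm was at 113 CPM, and to 18.1 to 23.5 CPM elsewhere; in Zmat4-negative cells they summed to 763 CPM in the tamoxifen library before depletion. Endothelial genes (56.0 to 61.3 CPM), fibroblast and mural genes (66.8 to 128 CPM) and ciliated genes (45.1 to 50.8 CPM) were also low, and their part in the results above was not tested.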

How the data were processed

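Single-cell 3′ libraries (10x v3) of live-sorted mouse lung tumour cells were deposited by the authors as whole-number UMI counts per gene and barcode, made with Cell Ranger against mm10 per the submitters' processing notes (version 7.2.0; per the file headers 7.0.1). Members, gene lists and rules were chosen with earlier results of these data known. Cells were selected as stated, with doublets left in: Scrublet's automatic threshold did not work, so a score of 0.25 was an alternative. UMIs were summed per library and population, scaled to CPM, and compared as log2 of CPM plus 1. Genes named are the 10 with the largest smaller ratio in each direction, leaving out mitochondrial, ribosomal, immunoglobulin, sex-linked and unnamed genes, genes of the selection rule and genes higher in leukocytes, endothelium or fibroblasts than in epithelium, plus the list genes. Shares carry exact Clopper-Pearson intervals and ratios of summed UMIs exact conditional binomial ones. The latter take UMIs as independent, so they leave out spread between cells. Thinning drew 2000 UMIs per cell. The size rule was run on simulated Poisson counts with planted fold changes. The simulation held no spread between cells, suspensions or mice, so it cannot show how often such spread passes the rule. Coordinates come from GENCODE M21 (32158 of 32289 features matched), and promoter windows from RefSeq (28 of 40 named genes matched). TMM used edgeR 4.0.16 in R 4.3.3; the rest used Python 3.11.15 with scanpy 1.11.5, scipy 1.17.1 and numpy 2.4.6. Alternatives are given at the end. Some alleles and genes are not reported here.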

Additional observations from a re-analysis of the deposited data

Results flagged for a closer look

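Among the 20 genes named for the treatment, Htra4 and Muc5b had log2 ratios of opposite sign in members and in Zmat4-negative cells in both pairs. Htra4 was higher in members, and in Zmat4-negative cells its log2 ratio was -0.13 before and -0.70 after depletion. Muc5b was lower in members, with ratios of 2.06 and 0.69 in Zmat4-negative cells. Other genes past 2-fold in members also had opposite signs, among them Kcnq5 (1.54 and 1.84 against -1.17 and -0.20), Lypd2 (1.78 and 1.25 against -0.06 and -0.27) and Dpyd (-1.36 and -1.68 against 0.10 and 0.38), chosen after their values were seen. The difference between the populations was not tested. The Cre transcript, which belongs to none of the comparisons, was at 3.62, 3.63, 3.20 and 3.34 CPM in members, in the order vehicle before and after and tamoxifen before and after depletion. In Zmat4-negative cells it was at 2.27, 2.21, 3.17 and 2.26 CPM, and in cells over the Cldn4 and Krt7 limit at 1.83 to 4.08 CPM. In Cdh5-positive cells it was at 0, 2.40, 0 and 0 CPM, out of 373972 to 1191107 UMIs per library.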

How the results depend on the processing

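Membership shares are given in the order vehicle before, vehicle after, tamoxifen before and tamoxifen after depletion. With at least 3 Zmat4 UMIs the last 3 became 13.1%, 18.8% and 17.0%. With at least 10000 UMIs per cell the shares were 20.8%, 17.0%, 24.4% and 21.1%, and with cells thinned first 3.326%, 4.26%, 4.77% and 6.01%. The share of cycling members became 3.87% in the last library at 1 Zmat4 UMI per 10000, and 36.3%, 26.5%, 27.6% and 23.0% unthinned. Without the 10 CPM minimum, 52 genes were lower in members than in Zmat4-negative cells, 49 were higher and 126 lower with tamoxifen, and 21 were higher and 88 lower after depletion. As a mean over cells the counts against Zmat4-negative cells were 33 higher and 13 lower, and with weighted depth 12 lower. All other epithelial cells as reference gave 10 higher and 122 lower genes and left 5 of the 20 named genes past 2-fold, with 14 under it and Cst8 turned to a log2 ratio of 0.11, and Lyz1-high cells gave 256 and 71. Chosen after seeing the data, the libraries after depletion alone gave 57 lower genes, and that pair alone 46 genes higher with tamoxifen. TMM scaling moved the median ratio of all genes to Zmat4-negative cells by -0.17, -0.13, -0.19 and -0.07, and kept all 40 named genes past 2-fold. Leaving out cells with a Scrublet score of 0.25 also kept all 40. Of the 40, 3 missed 2-fold at 3 Zmat4 UMIs, 5 at 1 Zmat4 UMI per 10000, 1 at 10000 UMIs and 6 as a mean over cells. No paired analysis was possible because each group is 1 library without a replicate number. Low counts limit genes near 10 CPM in the libraries before depletion, which hold 157 and 199 members. The causes were not tested.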
